A study of Mus musculus with 41 samples.

Results

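Bisulphite amplicon sequencing of bone marrow-derived macrophages (BMDMs) also read CpGs in 3 genes that are best known from lymphocytes, Foxo1, Lef1 and Ccr7. The CpGs were taken by position on mouse genome mm9, from the first to the last CpG of each amplicon on its converted strand. These stretches hold 25 CpGs, 5 in Foxo1, 5 in Lef1 and 15 in Ccr7. Of these, 23 had 100 or more reads in every run at 0 h and 6 h, out of 83 such CpGs at 12 loci of the macrophage samples. In the whole series of 41 samples, 249 CpG positions, counted per strand, reached 100 reads in a sample.

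The series follows cytosine methylation at the Il4 locus of T cells and at enhancers of macrophages. The samples used here came from wild type C57BL/6 mice. Their bone marrow cells were grown into macrophages with L929-conditioned medium and M-CSF, and the labels give the treatment as KLA (Kdo2-lipid A, an agonist of the receptor TLR4) for 0, 6 or 24 h. The 0 h samples are the unstimulated controls. Each time has 2 samples, labelled replicates 1 and 2, and both carry the name of 1 library, so they are treated as 2 runs of it. The study's methods give 1 age range for all of its mice, and the labels do not give the number of mice.

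In bisulphite sequencing an unmodified cytosine is read as T, while 5-methylcytosine and 5-hydroxymethylcytosine are both read as C and cannot be told apart. The methylation level of a CpG is given in percent, as its C reads over the sum of its C and T reads. The origin of the reads of Foxo1, Lef1 and Ccr7 needs a caution that precedes every value. The deposited library names join the name of a macrophage bisulphite sample to a second name. It is marked BS at 0 h and 6 h, with a different number at each, and PB at 24 h. The study lists bisulphite primers for the 7 loci of these libraries that serve here as the comparison, Batf, Ptgs2, Alcam, Mdfic, Il1b, Il6 and Ptges, and none for Foxo1, Lef1, Ccr7 or Klf2. Whether the reads of the 3 genes came from the DNA of the labelled macrophages or from that of the second name cannot be told apart. The times below are therefore those of the library labels. If the reads came from the second name, the times compare samples with different second names.

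FOXO1 is a forkhead transcription factor that is held in the cytoplasm when AKT phosphorylates it. In resting T cells it sustains genes of survival and of homing to lymph nodes, Klf2, Il7r and Ccr7 among them. LEF1 is a high mobility group transcription factor that acts with β-catenin in the Wnt pathway and, with TCF1 (Tcf7), in the development of T cells. CCR7 is the chemokine receptor for CCL19 and CCL21 that guides naive T cells and mature dendritic cells to lymph nodes.

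All 3 loci were mostly methylated at 0 h, and all 3 locus means were lower in the library labelled 6 h, by a few points. The mean level at 0 h was 84.9% ± 0.0943 over the CpGs of Lef1, 77.9% ± 0.754 over those of Foxo1 and 76.1% ± 1.21 over those of Ccr7 (SD between the 2 runs, n = 2 runs of 1 library). The 6 h means were 82.1% ± 0.0627, 75.0% ± 0.117 and 73.0% ± 0.508 in the same order. The difference, 6 h minus 0 h, was -2.81 points for Lef1, -2.83 points for Foxo1 and -3.17 points for Ccr7, and it was negative in both runs at each locus. These differences exceeded the spread between runs, but with 1 library per time they have no biological replicate. The order of the loci was the same at both times, and the run means of Foxo1 and Ccr7, the closest pair, did not overlap at either time.

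The depth differed widely between the loci. CpGs of Lef1 had between 10237 and 21279 reads per run at 0 h and 6 h, those of Foxo1 between 1737 and 3087 and those of Ccr7 between 82 and 1494. The summed counts over all cytosines of a file were 2382567 and 2575905 at 0 h and 3170559 and 2033858 at 6 h for runs 1 and 2. The reads carry no molecular identifiers, so that intervals and tests on reads cover counting error only.

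Conversion was read from cytosines outside CpGs, which are nearly all unmodified in such cells. At 0 h and 6 h the share of C at these cytosines on the strand of the amplicon was between 0.179% and 0.900% in the 3 loci, against 0.111% to 0.301% at the 7 comparison loci. The highest values were those of Ccr7 in run 1, 0.669% at 0 h (95% Wilson interval 0.600% to 0.746%) and 0.900% at 6 h (0.825% to 0.982%). Run 2 of the same libraries gave 0.179% and 0.301% there. Run 1 also held a few unconverted reads of the 3 loci at both times, seen on the opposite strand, where the share of C outside CpGs was 99.6% to 100%. They covered a cytosine outside CpGs at most 7 times, and no cytosine outside CpGs was listed on the opposite strand in run 2 or at the 7 comparison loci in either run. Klf2, which also lacks listed primers, had such reads in run 1 at 0 h. There all 39 counts at cytosines outside CpGs on the opposite strand were C. Levels were taken from the strand of the amplicon alone, and the part of unconverted reads in them was not measured apart from the shares above.

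At single CpGs few differences between the runs of a library passed a test on reads. A chi-square test of C and T reads gave an unadjusted p under 0.05 at 5 of 83 CpGs at 0 h and at 4 of 83 at 6 h. After Benjamini-Hochberg adjustment over the 83, 0 CpGs of either time passed. Adjusted over the 5 CpGs of Foxo1 alone, 1 passed at 0 h, CpG 4, with 92.4% and 89.9% in runs 1 and 2. The largest difference between runs of that locus at 0 h, 2.57 points, was at CpG 2, which did not pass. The runs were not alike in every respect, since run 2 was lower at 56 of the 83 CpGs at 0 h, 11 of the 13 of Ccr7 among them, and the share of C outside CpGs in Ccr7 differed between runs. Because they carry 1 library name, both runs were counted as 1 sample. The median absolute difference between runs over the 83 CpGs was 0.782 points at 0 h and 0.835 points at 6 h.

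Foxo1 has its 5 CpGs in intron 1, at chr3:52087532-52087751 of mm9 on the plus strand, its midpoint 15382 bases from the annotated start of the gene. The gene spans chr3:52072259-52154031 and the intron chr3:52073345-52148960. The stretch is 220 bases long, with 2.27 CpGs per 100 bases. It is shown from the first to the last CpG because the levels fall into a low and a high part along it, and capitals mark the CpGs, numbered 1 to 5 from the left:
Foxo1 intron 1: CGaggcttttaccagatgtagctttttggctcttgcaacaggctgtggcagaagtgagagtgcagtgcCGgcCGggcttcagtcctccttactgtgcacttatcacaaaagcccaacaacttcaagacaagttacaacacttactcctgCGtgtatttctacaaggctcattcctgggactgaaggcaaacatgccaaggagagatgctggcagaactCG

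In Foxo1 the 3 CpGs nearest the start of the gene had intermediate levels and the last 2 were above 89% in every run. CpG 1 had a level of 75.5% and 74.5% in runs 1 and 2 at 0 h and of 67.0% and 67.8% at 6 h. CpG 2, the lowest of the locus, had 64.0% and 61.4% at 0 h and 56.5% in both runs at 6 h. CpG 3, which lies 4 bases from CpG 2, had 68.2% and 68.6% at 0 h and 66.3% and 65.5% at 6 h. At these 3 CpGs both 6 h values were below both 0 h values.

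CpG 4 of Foxo1 had 92.4% and 89.9% at 0 h and 89.4% and 89.9% at 6 h, so that run 2 differed by -0.00989 points between the times. CpG 5, the highest of the locus, had 92% and 92.3% at 0 h and 95.6% and 95.9% at 6 h. The mean difference was -7.59 points at CpG 1, the largest decrease of the locus, and 3.63 points at CpG 5, its only increase. By Fisher's exact test on the summed reads (two-sided, Benjamini-Hochberg over 83 CpGs), the adjusted p was 7.21e-15 at CpG 1 and 1.62e-11 at CpG 5. Neither reached the 10 points set as the smallest difference to be called.

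Lef1 has its 5 CpGs in intron 3 of a transcript with 12 exons, at chr3:130878790-130878916 on the plus strand. Its midpoint is 65464 bases from the start of the gene. The gene spans chr3:130813389-130927274 and this intron chr3:130818465-130887560. The stretch is 127 bases long with 3.94 CpGs per 100 bases, and it is shown because its 2 outermost CpGs are its least methylated, with the CpGs in capitals:
Lef1 intron 3: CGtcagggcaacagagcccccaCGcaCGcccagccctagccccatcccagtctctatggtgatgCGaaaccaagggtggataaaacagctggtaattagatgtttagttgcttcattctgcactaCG

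The 3 inner CpGs of Lef1 were near 90% at 0 h, and the outer 2 were lower. CpG 1 had a level of 78.5% and 78.7% in runs 1 and 2 at 0 h and of 78.6% and 78.2% at 6 h, so the times overlapped. CpG 2 had 88.7% and 88.8% at 0 h and 87.8% and 88.4% at 6 h. CpG 3 had 90.7% and 91.0% at 0 h and 86.8% in both runs at 6 h. The 6 h values of CpGs 2 and 3 lay below those of 0 h, by less than 1 point at CpG 2.

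CpG 4 of Lef1, the highest of the locus at 0 h, had 91.4% in both runs at 0 h and 87.9% and 88.1% at 6 h. CpG 5, the lowest, had 75.0% in both runs at 0 h and 69.6% and 68.7% at 6 h. This was the largest decrease of the locus, with a mean difference of -5.86 points, and no CpG of Lef1 had a higher mean at 6 h. The difference at CpG 1, -0.129 points, was the smallest and was within the spread between runs. Since each level of Lef1 rests on 10237 or more reads, small differences pass a test on reads. The adjusted p by Fisher's exact test was 7.26e-65 at CpG 3 for a difference of -4.04 points and 2.20e-52 at CpG 5.

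Ccr7 differs from the other 2 in that its CpGs lie in coding sequence. They are in exon 3 of 3, the last exon, which spans chr11:99005510-99007348 on the minus strand, and inside its coding part, chr11:99006275-99007348. The gene spans chr11:99005510-99016391. The stretch, chr11:99007033-99007322, is 290 bases long and has 5.17 CpGs per 100 bases, the densest of the 3. It is printed on the minus strand, the strand of transcription, because levels were higher towards its end, and CpGs 1 to 15 are in capitals from the left:
Ccr7 exon 3: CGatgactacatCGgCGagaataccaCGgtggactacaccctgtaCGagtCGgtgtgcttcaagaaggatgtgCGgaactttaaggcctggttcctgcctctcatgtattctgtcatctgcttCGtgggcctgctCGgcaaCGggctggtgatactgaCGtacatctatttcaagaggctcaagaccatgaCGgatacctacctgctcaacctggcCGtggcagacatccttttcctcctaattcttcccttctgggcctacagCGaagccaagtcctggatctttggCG

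Of the 15 CpGs of Ccr7, CpGs 9 and 10 had fewer than 100 reads in run 2 at both times, 95 and 96 reads at 0 h and 82 and 83 at 6 h, and enter no mean. CpGs 1 to 8 had between 981 and 1494 reads per run and CpGs 11 to 15 between 101 and 312. The mean level at 0 h was 71.9% and 70.4% in runs 1 and 2 over CpGs 1 to 8, and 85.2% and 83.1% over CpGs 11 to 15. At 6 h these means were 67.4% and 67.3%, and 82.9% and 81.2%. Both parts had a lower mean at 6 h, with differences of -3.82 and -2.12 points. The split follows the depth and was made after the values were seen.

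Within Ccr7, CpG 4 was the lowest at 0 h and had the largest decrease. Its level was 64.7% and 61.9% in runs 1 and 2 at 0 h and 54.7% and 55.0% at 6 h, a mean difference of -8.43 points (adjusted p = 2.09e-08 by Fisher's exact test). Run 1 alone gave -10.0 points there and run 2 -6.83 points, so that the 10 points were reached in run 1 alone. CpG 14 was the highest at 0 h, with 91.9% and 90.8%, and had 93.6% and 92.7% at 6 h. Its adjusted p was 0.444 by Fisher's exact test, at 137 to 266 reads per run. CpG 7 had the largest increase, from 74.6% and 73.8% to 77.7% and 77.2%, a mean difference of 3.28 points (adjusted p = 0.00986 by Fisher's exact test). The other 10 CpGs had mean differences between -8.10 and 0.677 points, and at 9 of them the mean was lower at 6 h.

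By the rule for a call, an adjusted p under 0.05 and a difference of 10 points or more, 0 of the 23 CpGs were called, against 4.82% of all 83 CpGs (4 CpGs, all in Klf2 and all lower at 6 h). Fisher's exact test gave an unadjusted p under 0.05 at 17 of the 23 (73.9%) and at 57 of all 83 (68.7%). By the adjusted p alone, with no minimum difference, 15 of the 23 (65.2%) were lower at 6 h and 2 (8.70%) were higher. Over all 83 CpGs these shares were 51.8% lower and 16.9% higher. The test compares the reads of 2 libraries and not the conditions.

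Counting only CpGs whose 2 runs at 6 h lay on 1 side of both runs at 0 h, 16 of the 23 (69.6%) were below and 3 (13%) above. Over all 83 CpGs these shares were 55.4% and 27.7%. The median difference was -3.41 points over the 23 CpGs and -1.49 points over the 83. At the 33 CpGs of the 7 comparison loci it was 0.806 points, and 6 of these were lower and 10 higher by the adjusted p alone. A further comparison locus is not reported here and is left out of these counts. The counts over all 83 CpGs imply that it had more lower than higher CpGs by the adjusted p alone.

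The locus means of the 7 comparison loci differed between the times by -0.706 to 2.17 points, with a median of 1.08 points. Of these 7 loci, 1 had a lower and 4 a higher mean at 6 h in both runs. Foxo1, Lef1 and Ccr7 lay below this range. Klf2, which encodes a transcription factor of T cell quiescence and of vascular endothelium and also lacks listed primers, had the largest negative difference, -6.57 points, from 25.3% to 18.7% over 20 CpGs. All 4 loci without listed primers had a more negative difference than any of the 7 comparison loci. The comparison locus that is not reported here enters neither this range nor these rankings, and more of its CpGs were lower than higher at 6 h. The separation is therefore shown for the 7 loci alone.

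The loci most like each of the 3, by the sum of the absolute differences of the locus means at 0 h and 6 h, were found among the 7 comparison loci and Klf2. Il6, with means of 72.5% and 72.9%, was the closest to Ccr7 (sum of 3.77 points) and to Foxo1 (7.57 points). Ptges, with 86.9% and 89.1%, was the closest to Lef1 (9.02 points) and the next for Ccr7 and Foxo1 (26.9 and 23.1 points). For Lef1 the next was Ptgs2 (15.6 points). The measure rests on 2 times with 1 library each.

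A list of 7 genes of the resting T cell and trafficking programme held Foxo1, Lef1, Ccr7, Klf2, Il7r, Tcf7 and S1pr1. Only 4 of them, Foxo1, Lef1, Ccr7 and Klf2, had a CpG with 100 or more reads in every run within 10000 bases of the gene. By the adjusted p alone, lower and higher CpGs numbered 4 and 1 of 5 in Foxo1, 4 and 0 of 5 in Lef1, 7 and 1 of 13 in Ccr7, and 18 and 1 of 20 in Klf2, against 51.8% lower and 16.9% higher of all 83 CpGs. The 83 include the CpGs of these 4 genes, which hold most of the lower ones. At the 33 CpGs of the 7 comparison loci, 6 were lower and 10 higher. Il7r, S1pr1 and Tcf7 had no value.

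The 24 h samples gave no level for the 3 loci, because their reads there were not converted. At cytosines outside CpGs on the strand of the amplicon, the share of C was 99.8% to 99.9% in both runs. At the 7 comparison loci in the same samples it was 0.118% to 0.205%, so that converted and unconverted amplicons stood side by side in 1 library. Klf2 was unconverted too, with 99.8% and 99.9%. A change between 6 h and 24 h at Foxo1, Lef1 and Ccr7 could therefore not be computed.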

How the data were processed

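The deposited files give 2 counts per cytosine, the C reads and the sum of C and T reads, which the authors made by mapping paired-end reads to mm9 with BSMAP (the version is not given in the sources used here) without normalization. The fraction of C in the same files was not used. Incomplete conversion raises a level, and PCR copies of a molecule narrow an interval.

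The level was 100 times the C count over the count of C or T, averaged over runs with equal weight, with a minimum of 100 reads in every run. Intervals are 95% Wilson intervals. CpGs were compared between 0 h and 6 h with Fisher's exact test, two-sided, on reads summed over runs, adjusted by Benjamini-Hochberg over 83 CpGs, and called at an adjusted p under 0.05 and 10 points. All 83 positions were CG in the mm9 sequence. Loci were named by the study's primers or, without them, by the GENCODE annotation of NCBIM37. Single CpGs are named where a locus has 5 or fewer, and otherwise for the highest and lowest level at 0 h and the largest rise and fall. CpGs 1 and 13 of Ccr7 fall outside this rule and were named after their values were seen, and CpGs 9 and 10 are named for their low depth. Of the comparison loci and of the gene list, 1 item each is not reported here and enters no value given for them, while all 83 CpGs stay in the adjustment and in the shares given over all CpGs. The members and lists were chosen with earlier results of these data known. The tests were tested on simulated binomial reads with changes of 0, 10 or 20 points. That simulation held no PCR copies and no variation between libraries, and no changes as small as the locus differences here. Alternatives were summed reads, minimums of 20 and 500 reads, minimum differences of 5 and 20 points, a run left out (with the CpGs kept or chosen anew), a correction for conversion, a Cochran-Mantel-Haenszel test with the run as stratum, and limma with runs as replicates. Python 3.11.15 with numpy 2.4.6, pandas 2.3.3, scipy 1.17.1, statsmodels 0.14.6 and pysam 0.24.0 was used, with R 4.3.3 and limma 3.58.1.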

Additional observations from a re-analysis of the deposited data

Results flagged for a closer look

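The unconverted reads of the 24 h samples held T at CpGs more often than at other cytosines. Averaged over runs and strands, the share of T at CpGs was 2.20% in Foxo1, 1.66% in Lef1 and 1.55% in Ccr7. At cytosines outside CpGs in the same reads it was at most 0.161% in Foxo1, 0.228% in Lef1 and 0.148% in Ccr7. These reads give no methylation level. The second name of this library is marked PB, as are the names of pyridine borane samples elsewhere in the series, in which 5-formylcytosine and 5-carboxylcytosine are read as T. For such samples the study scales down the C reads to correct for redundant reads of the opposite strand. That was not done here, so the shares above are not on the study's scale. No label says how these amplicons were treated, and which bases the T reads stand for was not tested.

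Reads of the 3 loci also appeared in 2 of the 35 samples outside the macrophage experiment, and 33 had none. In replicate 2 of TDG WT Th2 cells of the first cycle up to 23 reads covered a cytosine of Lef1, up to 10 one of Foxo1 and up to 4 one of Ccr7. In replicate 2 of TDG iKO Th2 cells of the first cycle these numbers were 16, 6 and 12. All are above the 3 reads taken as the limit of a count of 0. The share of C outside CpGs was 22% and 7.47% in Lef1, 50% and 82.1% in Foxo1, and 97.1% and 93.3% in Ccr7. No level was computed from them.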

How the results depend on the processing

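The locus mean differences kept their negative sign under all 8 alternatives run for each locus. For Foxo1 and Lef1 some of these could not alter the value. All their CpGs passed the lower and the higher alternative minimum of reads, so both settings returned the main value. With a run left out, choosing their CpGs anew likewise repeated the values with the CpGs kept. With each run left out in turn, on the CpGs of the main comparison, the difference lay between -3.45 and -2.22 points for Foxo1, between -2.92 and -2.70 for Lef1 and between -3.67 and -2.67 for Ccr7. In an alternative chosen after seeing the data, the minimum of 100 reads was asked of the remaining run alone. This took in all 15 CpGs of Ccr7 without run 2 and gave -2.69 points. Over all alternatives Ccr7 ranged from -3.82 to -2.67 points.

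The number of called CpGs depended on the minimum difference. In the 3 loci it was 0 in the main comparison and 8 with a minimum of 5 points. With run 2 left out it was 1, and 0 with run 1 left out, so the range with a run left out was 0 to 1. Over all CpGs it was 4 in the main comparison, 22 with 5 points, 0 with 20 points, 7 with a minimum of 20 reads, and 5 with either run left out. With limma, which took the runs as replicates and no minimum difference, 14 CpGs of the 3 loci (11 lower and 3 higher at 6 h) and 53 of all CpGs passed. The replicate block, a Cochran-Mantel-Haenszel test with the run as stratum, called 4 of all CpGs and 0 in the 3 loci, as without it. In the 3 loci no mean difference reached 10 points, the largest being -8.43, so a change of test alone could not add a call there. The run numbers are shared by the libraries of 0 h and 6 h and name no animal. Depth limits CpGs 11 to 15 of Ccr7, with 101 to 312 reads per run, where the Wilson intervals of 0 h and 6 h overlapped at each CpG in both runs. On the summed reads CpG 13 still differed, by -8.10 points (adjusted p = 0.00571 by Fisher's exact test), with both 6 h values below both 0 h values.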

Other observations

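The share of T at CpGs in the unconverted 24 h reads varied along the loci. In Foxo1 it was highest at CpG 2 on the strand of the amplicon, with 4.05% and 4.35% in runs 1 and 2, while the opposite strand had 2.91% and 3.04% there and a higher mean, 3.16%, at CpG 3. CpG 4 had 0.865% and 0.833%, and 0.828% and 0.860%. In Lef1 it was highest at CpG 5, with 3.28% and 3.09%, and 2.61% and 2.52% on the opposite strand. In both loci the CpGs highest on the strand of the amplicon were also the CpGs with the lowest level at 0 h. The order did not hold further in Lef1. CpG 1, with the next lowest level at 0 h, had the lowest mean share of the locus on that strand, 0.861%, and 2.24% on the opposite strand.

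In Ccr7 the highest share on the strand of the amplicon was that of CpG 1, 4.23% and 4.33%, against 1.23% and 0.825% on the opposite strand. CpG 4, the lowest of Ccr7 at 0 h, had 1.24% and 1.15%, and 1.29% and 1.26% on the opposite strand. Across the 23 CpGs of the 3 loci, the share of T (mean of strands and runs) and 100 minus the level at 0 h had a Pearson r of 0.602 and a Spearman rho of 0.617. The 2 strands differed from each other, with a Pearson r of 0.278 and a Spearman rho of 0.18 between them over the 25 CpGs. Within loci, Pearson's r was 0.993 over the 5 CpGs of Foxo1, 0.735 over the 5 of Lef1 and 0.388 over the 13 of Ccr7. Klf2 entered none of these values. Its mean level at 0 h was far lower, 25.3%, yet its shares of T on summed reads were 1.53% to 2.22%. CpGs of a locus share reads and are not independent, and the values come from libraries labelled with different times and different second names.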
